A study of Homo sapiens with 6 samples.

Results

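Small RNA silencing depends on a short chain of proteins, and 10 of their genes were followed here in SW480 cells, a human colorectal adenocarcinoma line, after knockdown of the transcription factor ZEB1. The 10 are AGO1, AGO2, AGO3, AGO4, DICER1, TARBP2, TNRC6A, TNRC6B, TNRC6C and XPO5. They were picked by gene name for their role in the pathway, with earlier results of these data known. Each had 1 row among the 32029 genes listed for every culture. The 3 siNC cultures are wild-type SW480 cells given control siRNA, and the 3 siZEB1 cultures are SW480 cells given siRNA against ZEB1. All were harvested 48 h after transfection. The knockdown is transient and rests on 1 cell line, and the sequences of the siRNAs are not given in the sources used here. Since the controls also received siRNA, an untransfected state of the silencing genes was not analysed here. The methods of the study call the cultures biological replicates.

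MicroRNAs are made from long transcripts that are cut in the nucleus by DROSHA with DGCR8, exported as hairpins by exportin-5 (XPO5), and cut again in the cytoplasm by the endonuclease Dicer (DICER1), which works with the double-stranded RNA-binding protein TRBP (TARBP2). One strand is then loaded into an Argonaute protein (AGO1 to AGO4), which it guides to matching sites, mostly in the 3′UTRs of mRNAs. Argonaute recruits a TNRC6 protein (also called GW182), which in turn brings in the enzymes that remove the poly(A) tail and the cap. Transfected siRNAs enter the same pathway at the Argonaute step. AGO2 is the Argonaute best known for cutting a fully matched target, as an siRNA and its target are.

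The 6 libraries held between 19040636 and 22357633 counted reads. Levels are given as CPM, read counts scaled to library size with TMM factors, and siZEB1 was compared with siNC by edgeR's quasi-likelihood test over the 14996 genes that passed its filter on low counts, with Benjamini-Hochberg adjusted p-values. All 10 genes passed this filter. ZEB1 itself was at 54.2 ± 6.24 CPM with siNC (SD, n = 3) and at 7.51 ± 0.843 CPM with siZEB1, lower in 3 of 3 cultures (adjusted p = 4.85e-12), so the labels of the groups held for the targeted gene. Of the markers of a colorectal epithelial line, KRT8 was at 3460 ± 160 CPM and KRT18 at 1420 ± 150 CPM in the siNC cultures. Low there were VIL1 (4.08 ± 0.503 CPM), LGR5 (0.849 ± 0.136 CPM) and CDH17 (0.0841 ± 0.109 CPM), and CDX1 was not among the listed genes. Of the 6 such markers tested, 2 were higher and 2 lower with siZEB1, where 19.0% and 21.2% of all tested genes were. Among the called markers were EPCAM (54.7 to 454 CPM) and CDX2 (103 to 41.8 CPM). Of 9 markers of blood, stromal and endothelial cells, 3 had enough reads to be tested and 0 were called, by edgeR, at an unadjusted p-value under 0.05 or by DESeq2, and COL1A1 was the highest, at 10.2 ± 0.572 CPM with siNC. In bulk RNA, fewer reads per cell of 1 kind cannot be told apart from fewer cells of that kind.

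TNRC6A and TNRC6B, which carry the silencing signal from Argonaute to the deadenylases, had the lowest fold changes of the 10 genes after ZEB1 knockdown (-0.95 and -0.78 on the log2 scale), and AGO2, XPO5 and DICER1 fell less. At an adjusted p-value under 0.05, 5 of the 10 genes were lower and 0 were higher, where 21.2% of all tested genes were lower and 19.0% were higher. The count of 0 higher genes was also 0 with DESeq2's Wald test, and at an unadjusted p-value under 0.05 it was 1, AGO3. Of the 10 log2 fold changes, 9 were below 0, and their median was -0.21, against -0.0055 over all tested genes. The siZEB1 cultures lay wholly below the siNC cultures for 4 of the 10 genes, TNRC6A, TNRC6B, AGO2 and XPO5, where 25.3% of tested genes did so, and wholly above them for 0, where 24.3% did so. With a rule on size as well, more than a 1.5-fold difference at p under 0.05 without adjustment, 2 of the 10, TNRC6A and TNRC6B, were lower and 0 were higher, where 9.35% and 7.21% of tested genes were. The 10 levels were measured on the same 6 cultures, so they are not independent of each other.

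**Figure D1:**
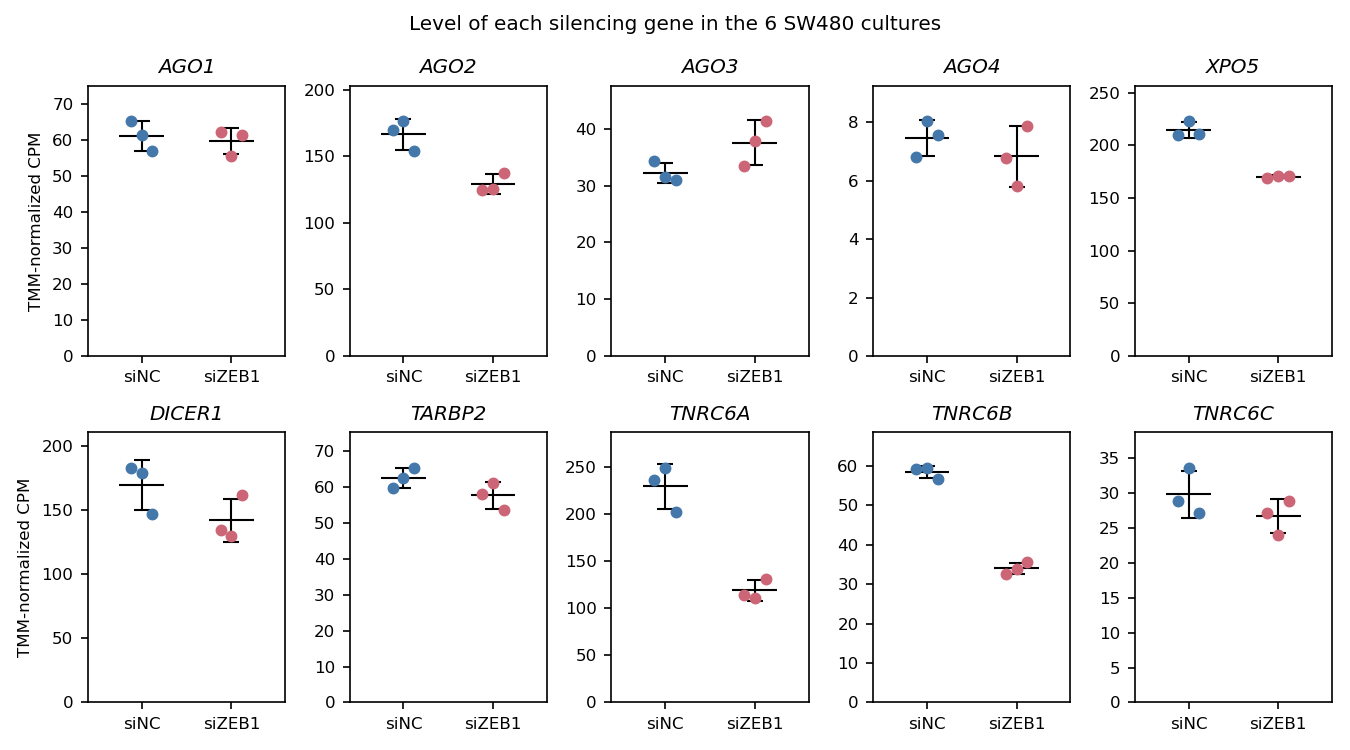
Level of each of the 10 genes in TMM-normalized CPM (vertical axes, each from 0) for the 3 siNC and the 3 siZEB1 cultures. Points are cultures in the order of replicates 1, 2 and 3, long lines are means and bars are SD, and the groups are apart for AGO2, XPO5, TNRC6A and TNRC6B and overlap for the other 6.

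**Figure D2:**
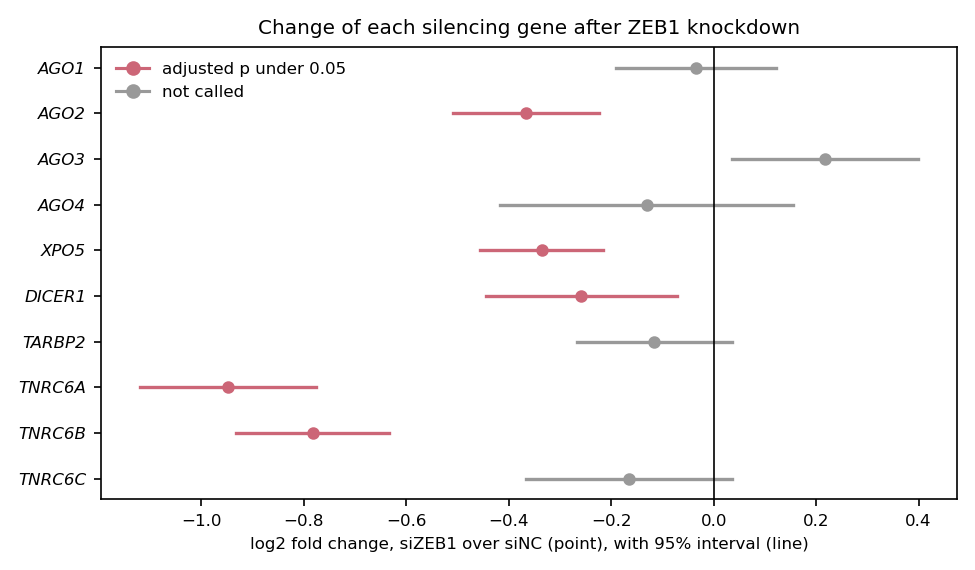
Log2 fold change of siZEB1 over siNC (horizontal axis) for the 10 genes, with the point for the estimate and the line for its 95% interval. TNRC6A (-0.95) and TNRC6B (-0.78) lie farthest to the left, and AGO3 (0.22) is the single gene with an estimate above 0.

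XPO5, the exportin that carries hairpin precursors out of the nucleus (chromosome 6 from 43522330 to 43576075 on GRCh38), was at 210 CPM in siNC replicate 1, 222.9 in replicate 2 and 210.8 in replicate 3. In the siZEB1 cultures it was at 168.5, 171.3 and 170.5 CPM. The values were tight in both groups and did not overlap. The change was -0.34 on the log2 scale (SE 0.057, adjusted p = 0.000151), a change of -20.7%, with a 95% interval from -0.46 to -0.22. Exons of another gene on the opposite strand, POLR1C, overlap 4.08% of the exonic bases of XPO5, and whether the counting used the strand is not given in the sources used here.

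DICER1 (chromosome 14 from 95086228 to 95158010) was at 183.3, 178.9 and 147.4 CPM with siNC and at 134.4, 130.3 and 161.6 CPM with siZEB1. The groups overlapped, because siNC replicate 3 was the lowest control and siZEB1 replicate 3, the highest treated culture, lay above it. The change was -0.26 on the log2 scale (SE 0.088, adjusted p = 0.0271), with an interval from -0.44 to -0.072. The call was lost without siNC replicate 1 (adjusted p = 0.11), siNC replicate 2 (0.114), siZEB1 replicate 1 (0.127) or siZEB1 replicate 2 (0.132). TARBP2, the Dicer partner (chromosome 12 from 53500921 to 53506431), was at 59.6, 62.4 and 65.4 CPM with siNC and at 58.2, 61.1 and 53.7 CPM with siZEB1. Its groups overlapped and it was not called, at -0.12 on the log2 scale (SE 0.072, adjusted p = 0.215) with an interval from -0.27 to 0.036. A fall of TARBP2 as large as that estimated for XPO5 lies outside this interval.

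The promoter windows of the 10 genes were searched for E-box sequences that ZEB1 is known to bind, CAGGTG and CAGGTA on both strands (CACCTG and TACCTG are the same motifs read on the other strand). RefSeq promoters on GRCh38.p14, from 250 bases before to 50 bases after a transcript start, were at hand for 9 of the 10 genes, all but AGO2, with 18 windows in all. CAGGTG was present in 3 of the 18 windows and CAGGTA in 0. Of all 35116 promoter windows at hand, 28.1% held at least 1 of the 2 motifs. With 1 window per gene, the first listed, 24.2% of 10428 tested genes did. The 18 windows include several of some genes, so the second share is not counted in the same way. The 3 matches are shown with 12 bases on each side and the motif in capitals, since they are the places in these windows that carry the recognition letters of ZEB1. That of DICER1 lies at chr14:95158220-95158249 on the minus strand, that of TARBP2 at chr12:53501529-53501558 on the plus strand and that of TNRC6C at chr17:77958529-77958558 on the plus strand.
DICER1: gtgagcacacctCACCTGgagcaaaccggc
TARBP2: ggccccagcatgCACCTGgcctgagggttg
TNRC6C: gggggaggagctCAGGTGcagagtgccgat
They begin 227, 45 and 162 bases before a transcript start. A match is a run of letters and not evidence of binding, other parts of the genes were not searched, and the part of these motifs in the levels was not tested.

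Of the 4 Argonautes, AGO2 fell, AGO1 and AGO4 were not called, and AGO3 had a higher estimate that missed the threshold. AGO2 (chromosome 8 from 140520156 to 140635619) was at 169.8, 176.4 and 153.9 CPM with siNC and at 124.7, 125.6 and 137.8 CPM with siZEB1. Each siZEB1 culture lay below each siNC culture. The change was -0.37 on the log2 scale (SE 0.067, adjusted p = 0.000341), a change of -22.4%, with an interval from -0.51 to -0.22.

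AGO1, AGO3 and AGO4 stand side by side on the plus strand of chromosome 1, in the order AGO4 (from 35808172 to 35857890), AGO1 (from 35869808 to 35930528) and AGO3 (from 35930718 to 36072500). AGO1 was at 65.3, 61.6 and 56.9 CPM with siNC and at 62.2, 55.8 and 61.6 CPM with siZEB1. The groups overlapped, with siNC replicate 1 the highest and siZEB1 replicate 2 the lowest of the 6, at -0.035 on the log2 scale (SE 0.074, adjusted p = 0.74) with an interval from -0.19 to 0.12. AGO3 was at 34.2, 31.5 and 31.0 CPM with siNC and at 33.4, 37.8 and 41.3 CPM with siZEB1. Of the siZEB1 cultures, 2 of 3 lay above every siNC culture. The estimate was 0.22 on the log2 scale (SE 0.086, adjusted p = 0.0532), and across the alternatives this p lay between 0.0242 and 0.242. It passed the threshold with median-of-ratios size factors (0.0459), without siNC replicate 1 (0.0375) and without siZEB1 replicate 1. AGO4 was the least abundant, with 145, 180 and 146 reads with siNC and 128, 112 and 151 with siZEB1. The estimate was -0.13 on the log2 scale (SE 0.14, adjusted p = 0.472), and at this depth its interval ran from -0.42 to 0.16.

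The 3′UTRs were searched for the 7-mer GAACACA, which was chosen because earlier results of these data had shown its genes to be lower with siZEB1. It was found in 10.7% of the 12169 tested genes with a GENCODE 29 3′UTR, and their median log2 fold change was -0.23, against 0.0068 for the others. A second 7-mer, CGGAGAA, also chosen with those results known, was found in 2.14% of the genes and in 0 of the 10, with medians of 0.094 with it and -0.013 without. Of the 10 silencing genes, 3 held GAACACA, AGO2 in 1 of 2 annotated coding transcripts, AGO3 in 2 of 4 and TNRC6B in 3 of 5. AGO2 held 1 copy in a 3′UTR of 11888 bases, and the 3′UTRs of AGO3 and TNRC6B had 16755 and 12566 bases. These 3 were the longest 3′UTRs of the 10 genes, and a longer 3′UTR has more places for any 7-mer. The copy of AGO3 (chr1:36055910-36055939, plus strand) and the 2 copies of TNRC6B (chr22:40324048-40324077 and chr22:40331333-40331362, plus strand) are shown in 30 bases each, with the 7-mer in capitals.
AGO3: acttcatcaagGAACACAgcatcattatgc
TNRC6B copy 1: tttaactatgaGAACACAcaggcccggaga
TNRC6B copy 2: ctattatagttGAACACAgaaatctgcagt
AGO3, with 1 copy 176 bases into its 3′UTR, had an estimate above 0 that was not called, and TNRC6B was called lower. AGO1, AGO4, DICER1, TARBP2, TNRC6A, TNRC6C and XPO5 held no copy in the 3′UTR of any annotated coding transcript. The part of this 7-mer in the changes of AGO2 and TNRC6B was not tested. Genes with the 7-mer also had longer 3′UTRs, with a median of 2833 bases against 865.

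TNRC6A (chromosome 16 from 24610209 to 24827632) and TNRC6B (chromosome 22 from 40044817 to 40335808) encode scaffold proteins that bind Argonaute on one side and the CCR4-NOT and PAN2-PAN3 deadenylases on the other. TNRC6A was at 236.6, 249.5 and 202.5 CPM with siNC and at 114.6, 111 and 131.5 CPM with siZEB1. The lowest siNC culture stood 71 CPM above the highest siZEB1 culture. The change was -0.95 on the log2 scale (SE 0.081, adjusted p = 8.53e-08), a change of -48.1%.

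TNRC6B was at 59.2, 59.6 and 56.7 CPM with siNC and at 32.5, 34.0 and 35.5 CPM with siZEB1, with little spread within either group and no overlap. The change was -0.78 on the log2 scale (SE 0.071, adjusted p = 1.74e-07), a change of -41.9%. TNRC6C (chromosome 17 from 77959240 to 78108835), the remaining paralog, was at 28.8, 33.7 and 27.2 CPM with siNC and at 27.2, 24.1 and 28.8 CPM with siZEB1. The groups overlapped, and it was not called (log2 fold change -0.17, SE 0.095, adjusted p = 0.18). Its interval, from -0.37 to 0.036, does not reach the estimates of TNRC6A and TNRC6B. TNRC6C passed the threshold without siNC replicate 3 (adjusted p = 0.0478), its lowest control. Exons of TNRC6C-AS1 on the opposite strand overlap 12.9% of its exonic bases, and how many of its reads could come from there was not measured.

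Ratios of reads between 2 of the genes within a culture do not depend on how the libraries were scaled, and 6 such ratios were compared between the groups by a two-sided exact permutation test, in which the smallest p-value that 3 against 3 cultures can give is 0.1. The ratio of TNRC6A to TNRC6C was 8.21, 7.41 and 7.45 with siNC and 4.22, 4.61 and 4.56 with siZEB1 (exact p = 0.1, 0.15 after adjustment over the 6 ratios). The ratio of TNRC6B to TNRC6C was 1.97 ± 0.17 with siNC and 1.28 ± 0.11 with siZEB1 (SD, n = 3 each, exact p = 0.1). Neither of these ratios overlapped between the groups, whereas the ratio of TNRC6A to TNRC6B did, at 3.92 ± 0.32 and 3.5 ± 0.22 (exact p = 0.2). Among the Argonautes, the ratio of AGO2 to AGO1 was 2.6, 2.86 and 2.7 with siNC and 2.01, 2.25 and 2.24 with siZEB1, without overlap (exact p = 0.1). The ratio of AGO2 to AGO3 went from 5.17 ± 0.36 to 3.46 ± 0.23, again without overlap (exact p = 0.1). The ratio of DICER1 to TARBP2 overlapped, at 2.73 ± 0.43 and 2.49 ± 0.46 (exact p = 0.6).

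To compare levels between genes, CPM was divided by the length of all annotated exons of a gene in kb, a scale that understates genes whose cells use only their shorter transcripts. On this scale and with siNC, XPO5 was the highest of the 10, at 25.2 ± 0.846 CPM per kb (SD, n = 3), and did not overlap with the next gene. TNRC6A (17.8 ± 1.88), TARBP2 (15.3 ± 0.706) and DICER1 (13.8 ± 1.59) followed, each overlapping with its neighbour in that order. AGO2 (10.5 ± 0.73) and AGO1 (4.41 ± 0.304) came next, each apart from its neighbours. Then TNRC6B (2.93 ± 0.0782) and TNRC6C (2.69 ± 0.304) overlapped, and AGO3 (1.52 ± 0.0826) and AGO4 (1.03 ± 0.0846) were the lowest, each apart from its neighbours. With siZEB1, XPO5 stayed highest at 20.0 ± 0.17 CPM per kb and AGO4 lowest at 0.94 ± 0.142. TNRC6A was at 9.21 ± 0.847, below DICER1 and overlapping with AGO2, and TNRC6B, at 1.70 ± 0.0752, lay below TNRC6C without overlap.

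As shares of the summed level of the 4 Argonautes, per exon length, AGO2 made up 59.6%, 61.3% and 59.5% with siNC and 53.0%, 54.6% and 53.8% with siZEB1. AGO2 thus remained the largest Argonaute transcript in all 6 cultures. AGO1 went from 25.2% ± 0.881 to 28.4% ± 1.51, AGO3 from 8.72% ± 0.451 to 11.7% ± 0.902 and AGO4 from 5.9% ± 0.606 to 6.17% ± 0.607 (SD, n = 3 each). The 4 together summed to 17.5 ± 1.02 CPM per kb with siNC and 15.2 ± 0.865 with siZEB1. The summed level of the 3 TNRC6 genes went from 23.4 ± 2.22 to 13.3 ± 1.1 CPM per kb, without overlap. Within it, TNRC6A went from 75.9% ± 1.01 to 69.1% ± 0.726 and TNRC6B was at 12.6% ± 0.895 and 12.8% ± 0.739. TNRC6C made up 11.5% ± 0.568 with siNC and 18.9%, 17.4% and 17.8% with siZEB1. These shares restate the levels above and were not tested separately.

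**Figure D3:**
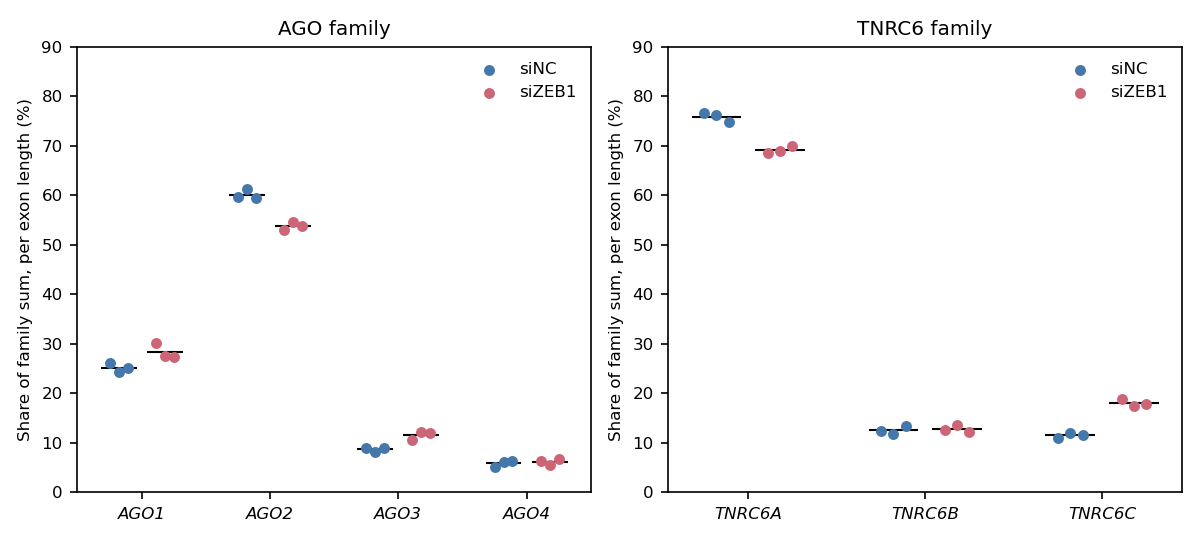
Share of each gene in the summed level of its family (vertical axes, percent, per exon length, from 0) in the 3 siNC and 3 siZEB1 cultures, for the AGO family (left) and the TNRC6 family (right). Points are cultures and lines are means, and the share of AGO2 sits at 59.5% to 61.3% with siNC and at 53.0% to 54.6% with siZEB1.

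Cultures numbered 3 stood apart for these genes. Among the siNC cultures, replicate 3 was the lowest for 7 of the 10 genes, where it was the lowest for 38.1% of all tested genes and the highest for another 38.1%. Among the siZEB1 cultures, replicate 3 was the highest for 7 of the 10, where it was so for 37.5% of all tested genes. The deviation went with exon length over all tested genes. For genes with more than 8000 exonic bases, the median of siNC replicate 3 lay 0.094 below the other controls on the log2(CPM + 1) scale, and that of siZEB1 replicate 3 lay 0.083 above the other treated cultures. For genes with up to 4000 exonic bases these medians were 0.055 and -0.059. The 10 genes have between 4090 and 21157 exonic bases. The median log2 fold change over the 2813 tested genes with more than 8000 exonic bases was -0.046, with 27.3% of them lower at an adjusted p-value under 0.05, against 21.2% of all genes. Without both replicate 3 cultures, an alternative added after the data were seen, 6 of the 10 genes were lower and 0 higher. Of all 14996 tested genes, 3595 were then lower and 3340 higher, against 3186 and 2849 with all 6 cultures. In this setting TNRC6A was at -1.10, TNRC6B at -0.83, AGO2 at -0.46 and XPO5 at -0.35 on the log2 scale. Since siNC replicate 3 was the lowest control and siZEB1 replicate 3 the highest treated culture for most of the 10 genes, leaving both out had to enlarge falls among them, and these values are no support for the falls. The part of exon length in the calls was not tested further.

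The genes that act before and after these 10 were taken from lists drawn up by role, also with earlier results of these data known. Of 108 listed genes, 102 were tested, and 26 were higher and 20 lower, together 45.1% against 40.2% of all tested genes, with a median log2 fold change of 0.024. As a whole, these lists were therefore called about as often as other genes, and their genes went both ways.

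Upstream of export, 1 of 14 genes of primary microRNA processing was higher and 2 were lower, together 21.4% against 40.2% of all tested genes. DROSHA, the nuclear nuclease that makes the hairpins, rose from 93.4 ± 5.47 to 120 ± 4.67 CPM (log2 fold change 0.36, SE 0.066, adjusted p = 0.000346). Its partner DGCR8 was at 45.2 ± 0.474 and 41.5 ± 3 CPM and was not called (adjusted p = 0.19). HNRNPA1 and KHSRP, which bind some primary microRNAs, fell by 0.16 and 0.16 on the log2 scale (adjusted p = 0.0153 and 0.0258). Reads of HNRNPA1 may be shared with its pseudogenes. Of 5 nuclear transport genes, 1 was lower, so that 20.0% were called against 40.2% of all tested genes. XPO1, the exportin for proteins and some RNAs, fell from 503 ± 39.6 to 326 ± 17.9 CPM (log2 fold change -0.63, SE 0.064, adjusted p = 7.44e-07). RAN, the GTPase that exportin-5 needs to hold its cargo, was at 716 ± 7.61 and 774 ± 43.3 CPM (adjusted p = 0.101).

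At the loading step, where heat shock chaperones hold Argonaute open for a duplex, 6 of 12 chaperone genes were higher and 0 lower, where 19.0% and 21.2% of all tested genes were. The count of 0 lower genes was 0 too at an unadjusted p-value under 0.05 and with DESeq2. AHSA1, an activator of the HSP90 ATPase, rose from 173 ± 4.65 to 276 ± 16.2 CPM (log2 fold change 0.67, SE 0.060, adjusted p = 1.64e-07). DNAJA2, DNAJA1 and HSP90AB1 rose by 0.42, 0.32 and 0.26 on the log2 scale, and the median of the 12 was 0.16. Chaperones serve many other client proteins, so the list is not specific to Argonaute.

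Of 21 tested cofactors and regulators of Argonaute, 8 were higher and 5 lower, beside 19.0% and 21.2% of all tested genes. FXR2, TSNAX and FXR1 rose by 0.46, 0.43 and 0.38 on the log2 scale. FXR1 and FXR2 are paralogs of the fragile X protein and bind RNA, and TSNAX is a subunit of the nuclease C3PO. LIMD1, a LIM-domain protein that binds Argonaute, fell from 14.8 ± 1.99 to 11.1 ± 1.39 CPM (log2 fold change -0.43, SE 0.12, adjusted p = 0.00862). PRKRA, the other known partner of Dicer, was at 43.9 ± 3.18 and 43.6 ± 1.36 CPM (adjusted p = 0.932), and the RNA-editing enzyme ADAR was at 232 ± 15 and 213 ± 8.22 CPM (adjusted p = 0.134). Of 9 enzymes that tail or trim small RNAs, TUT1 rose by 0.33 and DIS3L2 fell by 0.26 on the log2 scale (adjusted p = 0.0131 and 0.0463), and 7 were not called. The called share was 22.2%, against 40.2% of all tested genes. DESeq2 called 1 of the 9 higher and 0 lower.

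Downstream of the TNRC6 proteins, the 15 deadenylase genes were split, with 4 higher and 2 lower and a median log2 fold change of 0.0076. Together 40.0% of them were called, about the 40.2% of all tested genes. PAN2 and PAN3, the paired subunits of 1 deadenylase, rose by 0.51 and 0.50 on the log2 scale (adjusted p = 0.000634 and 0.000166). CNOT6L and CNOT6, alternative catalytic subunits of CCR4-NOT, fell by 0.54 and 0.26 (adjusted p = 0.000117 and 0.00595). CNOT1, the scaffold on which CCR4-NOT is built, was at 468 ± 57.6 and 469 ± 43.5 CPM (adjusted p = 0.973).

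Of 12 decapping and decay genes, 3 were higher and 3 lower, beside 19.0% and 21.2% of all tested genes. The median log2 fold change of the 12 was -0.0087. EDC3 and DCP2, an enhancer of decapping and the decapping enzyme, rose by 0.72 and 0.68 on the log2 scale (adjusted p = 6.34e-07 and 6.11e-06), and DCP1A rose by 0.28. DDX6, the helicase that CCR4-NOT recruits to silenced mRNAs, fell from 234 ± 25.9 to 168 ± 16.2 CPM (log2 fold change -0.48, SE 0.081, adjusted p = 0.000145). The exonuclease XRN1 was at 37.1 ± 5.58 and 37.0 ± 2.88 CPM (adjusted p = 0.971). Of 5 genes for poly(A)-binding proteins and their partners, PABPC4 and PABPC1 rose by 0.20 and 0.14, and PAIP1, a partner that promotes translation, fell from 134 ± 3.51 to 72.3 ± 2.9 CPM (log2 fold change -0.89, SE 0.064, adjusted p = 1.05e-08).

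**Figure D4:**
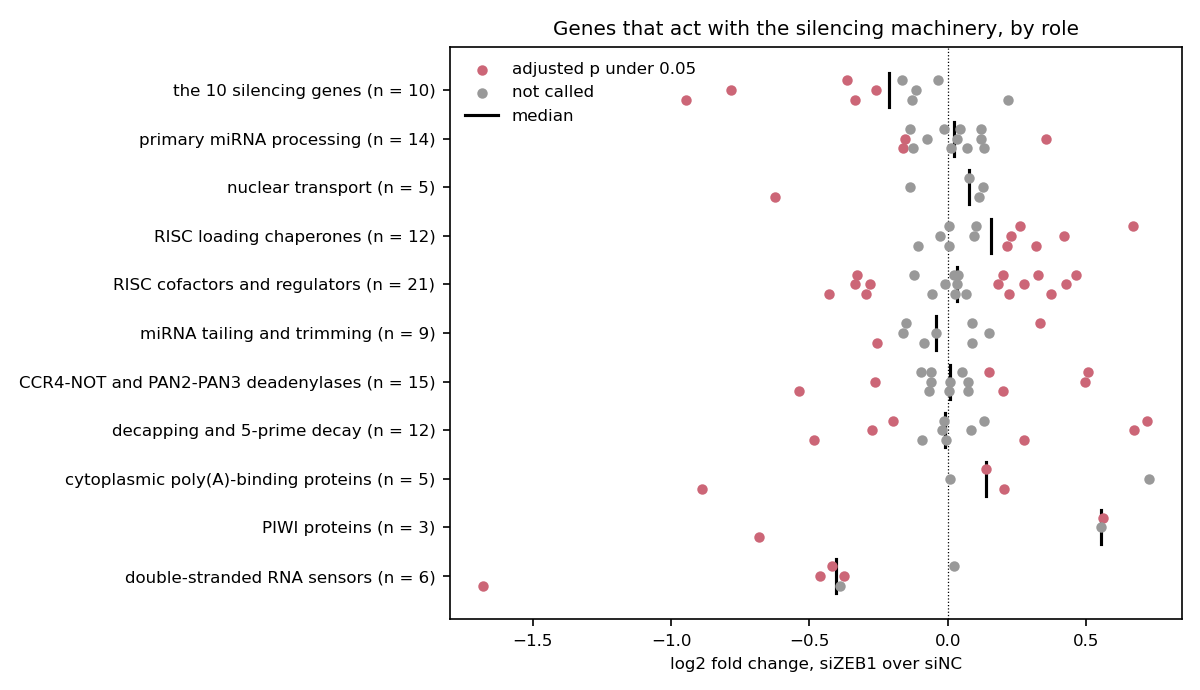
Log2 fold change of siZEB1 over siNC (horizontal axis) for the 10 silencing genes and for the tested genes of each list drawn up by role. Points are genes, coloured by whether the adjusted p-value was under 0.05, vertical bars are medians, and the median of the 10 genes lies at -0.21 while that of the loading chaperones lies at 0.16.

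The PIWI proteins, germline relatives of the Argonautes, had low levels. PIWIL4 was at 5.38 ± 0.805 CPM with siNC and fell by 0.68 on the log2 scale (adjusted p = 0.00254), and PIWIL2, at 1.93 ± 0.215 CPM, rose by 0.56 (adjusted p = 0.0498), while DESeq2 called 0 PIWI genes higher. Long RNA duplexes are detected by sensors, some of which share substrates with Dicer and TRBP. Of 10 genes of these sensors and their signalling partners, 6 were tested. In this group 4 were lower and 0 higher, beside 21.2% and 19.0% of all tested genes. At an unadjusted p-value under 0.05 and with DESeq2 the higher count was 0 as well, while DESeq2 called 3 lower. RIGI, OAS3 and MAVS, an adaptor and not itself a sensor, fell by 0.46, 0.42 and 0.37 on the log2 scale. The duplex-activated kinase EIF2AK2 was at 106 ± 12 and 108 ± 8.55 CPM (adjusted p = 0.855), and IFIH1, DHX58, OAS1 and OAS2 had too few reads to be tested.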

How the data were processed

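RNA-seq of 3 siNC and 3 siZEB1 cultures was used. Per the labels, the authors' processing used Trimmomatic, HISAT2, SAMtools and featureCounts on hg38, and the deposited values are whole-number counts of reads per Ensembl gene, not normalized. Versions, annotation and strand setting are not given in the sources used here. From these counts, edgeR 4.0.16 (R 4.3.3; filterByExpr, TMM, quasi-likelihood test, two-sided, no covariates) compared the groups, with a biological coefficient of variation of 6.58%. The comparison was also run on counts simulated with the means and dispersions of these data and independent noise. That run cannot show how the deviation of the replicate 3 cultures bears on the calls. Coordinates, exon lengths and 3′UTRs (1 transcript per gene, longest coding sequence) come from GENCODE 29, which holds 31059 of the 32029 listed genes. DESeq2 1.42.0, other scalings and filters, the replicate number as a block and each culture left out were the alternatives. The 10 genes, the lists and the 7-mers were chosen with earlier results of these data known. The text names, besides ZEB1 and the 10 genes, up to 4 called genes per list with the largest change and a mean of at least 1 CPM, and DROSHA, DGCR8, RAN, PRKRA, ADAR, DDX6, CNOT1, XRN1 and EIF2AK2. KRT8, KRT18, VIL1, LGR5, CDX1, CDH17, EPCAM, CDX2 and COL1A1 were named after their values were seen. A called gene of the sensor list that this rule would name is not reported here.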

Additional observations from a re-analysis of the deposited data

How the results depend on the processing

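Of the 5 genes called lower, TNRC6A, TNRC6B, AGO2 and XPO5 kept their direction and their call in all 13 alternatives. Of these, 1 left out both replicate 3 cultures, was added after the data were seen and is no support for the falls. With single cultures left out, the log2 fold changes of the 4 ran from -1.03 to -0.88, -0.82 to -0.75, -0.42 to -0.32 and -0.35 to -0.31. ZEB1 then stayed between -2.95 and -2.79. The sign of AGO1 turned without siNC replicate 1 or siZEB1 replicate 2, and its values without single cultures ran from -0.085 to 0.013. Asking for more than a 1.5-fold difference at p under 0.05 without adjustment, 2 of the 10 genes were lower. Of the 102 tested pathway genes, 4 were higher and 4 lower by this rule, where 7.21% and 9.35% of all tested genes were. With median-of-ratios size factors 1 of the 10, AGO3, was higher, and when single cultures were left out the count of higher genes was 0 or 1. Whether same-numbered cultures shared more than a number cannot be told from so few cultures. Their deviations correlated by -0.052, -0.088 and -0.2, and those of differently numbered cultures by -0.071 to 0.144. With the replicate number as a block DICER1 was not called (log2 fold change -0.26, adjusted p = 0.0612), and of all tested genes 2289 were higher and 2679 lower, against 2849 and 3186 without it. Changes of AGO4 were limited by its depth of 112 to 180 reads per culture.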
